A study of Homo sapiens with 4 samples.

Results

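The BCL2 family genes BCL2, BCL2L1, MCL1, BAX, BAK1, BID, BAD, BCL2L11, BBC3 and PMAIP1 were examined in AGS cells, a line established from a human gastric adenocarcinoma, with and without an shRNA against MFAP2. These 10 genes were chosen by name from the 47251 genes of the expression table, and all 10 were found, with 77 of the 180500 listed transcripts. RNA was sequenced from 4 libraries. In 2 of them the cells carried sh-MFAP2, a short hairpin RNA directed against the mRNA of MFAP2, which encodes an extracellular microfibril protein. In the other 2 the cells carried the scrambled control hairpin. The labels give no other treatment, time or genotype. Both groups had been infected with lentivirus that also carried a GFP marker and were then selected with puromycin. The labels name a single hairpin, sh1, for the knockdown group. The labels do not say whether replicates 1 and 2 were separate cultures, and all p-values therefore measure only the spread between these libraries.

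The BCL2 family decides whether the outer membrane of the mitochondrion stays intact. The guardians BCL2, BCL-xL (from BCL2L1) and MCL1 bind and hold back the effectors BAX and BAK1, which otherwise form pores and release cytochrome c. The BH3-only proteins BID, BAD, BIM (from BCL2L11), PUMA (BBC3) and NOXA (PMAIP1) bind guardians or activate effectors in response to stress. In carcinoma cells, BCL-xL and MCL1 are well-known survival proteins. Some of these genes yield splice forms with different products: BCL2L1 gives the protective BCL-xL or the death-promoting BCL-xS, and short forms of MCL1 are known to promote death.

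The transcript table separates these forms, and the sequences at the splice junctions that tell them apart are shown because the transcript results below turn on them. Each run is 30 bases of the mature transcript, 5′ to 3′, read from GENCODE 29 transcripts on GRCh38, with 15 bases on each side of the junction. Capitals mark the side that differs between the forms compared.
BCL2L1-201: GAGAACGGCGGCTGGgatacttttgtggaa
BCL2L1-202: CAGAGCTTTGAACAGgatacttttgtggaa
MCL1-202 across exons 1 and 2: agacggccttccaagGCATGCTTCGGAAAC
MCL1-201 across exons 1 and 3: agacggccttccaagGATGGGTTTGTGGAG
MCL1-204 within exon 1: ggagggcgacttttgGCCACCGGCGCCAAG
MCL1-202 at the same place, unspliced: ggagggcgacttttgGCTACGGAGAAGGAG
BAX-202: gaccagggtggttggGACGGCCTCCTCTCC
BAX-201: gaccagggtggttggGTGAGACTCCTCAAG

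In BCL2L1 (chr20:31664452-31723989, minus strand) both forms join exon 3 at base 31666086. BCL2L1-201, which encodes BCL-xL of 233 residues, leaves exon 2 at base 31721655, whereas BCL2L1-202, which encodes BCL-xS of 170 residues, leaves it 189 bases earlier, at base 31721844, and so loses 63 residues. In MCL1 (chr1:150574551-150579738, minus strand) the full form MCL1-202 of 350 residues joins the end of exon 1 at base 150578843 to exon 2 at base 150578491. MCL1-201 of 271 residues skips the 248 bases of exon 2 and joins base 150577491. MCL1-204 of 197 residues keeps exon 2 but removes 459 bases within exon 1, joining base 150579423 to base 150578963. In BAX (chr19:48954815-48961798, plus strand) BAX-202 (BAX alpha, 192 residues) joins exon 5 at base 48960914 to exon 6 at base 48961532, and BAX-201 (BAX beta, 218 residues) reads on into the 617 bases of the intron between them.

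The values were taken as FPKM, fragments scaled by transcript length and library depth, from the form of the numbers, since the tables do not name their unit. Read depth was not given and was inferred from the steps between low values as 54800000 to 74900000 reads per library. MFAP2 itself had 0 FPKM in both libraries with sh-MFAP2, 0.0116 FPKM in control replicate 1 and 0.0138 FPKM in control replicate 2, at most about 3 reads on the inferred scale, so the knockdown could not be checked on its target. AGS showed its epithelial identity in the summed FPKM of 7 epithelial markers. The sum ranged from 1925 to 2009 with sh-MFAP2 and from 1781 to 2007 in the controls. KRT8 and KRT18 made up most of it, at means of 761 and 658 FPKM. KRT7 was under 1 FPKM in each library, and CLDN4 had 47.1 FPKM in sh-MFAP2 replicate 1 but at most 0.551 FPKM elsewhere. CLDN7 was lower with sh-MFAP2, at 26 and 34.2 FPKM against 46.1 and 48.2 FPKM (log2 fold change -0.64, limma adjusted p = 0.371). Of 9 markers of immune, endothelial and stromal cells, 8 were near 0 in all 4 libraries. The exception was COL1A1, a collagen gene, and with it the sum of the 9 was 2.16 to 2.38 FPKM with sh-MFAP2 and 4.46 to 4.98 FPKM in the controls. The part of this difference in the results below was not tested.

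BCL2L1 and BAX were the most abundant members in every library (plot of FPKM by member and library). Over the 4 libraries, mean FPKM was 76.7 for BCL2L1 and 57.3 for BAX, and the ranges of these genes were apart from each other and from all other members. MCL1 (17.5 FPKM), BAK1 (16.9 FPKM), BID (14.7 FPKM) and BAD (14.5 FPKM) followed, and each of these overlapped its neighbour in this order. PMAIP1 (8.34 FPKM) and BBC3 (6.96 FPKM) overlapped each other as well, and PMAIP1 was apart from BAD. BCL2L11 had 2.36 FPKM, and BCL2 had a mean of 0.00958 FPKM. The guardian for which the family is named was thus close to undetected in AGS cells.

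**Figure D1:**
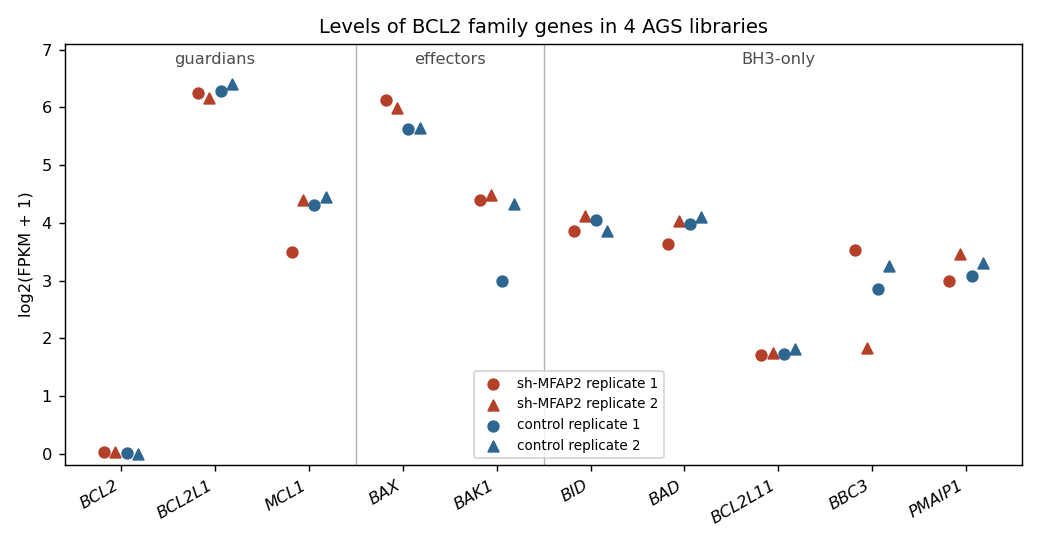
Level of the 10 BCL2 family members as log2(FPKM + 1) in each of the 4 libraries. Each point is a library, coloured by group, and the members are ordered by role. BCL2L1 and BAX lie on top in every library, BCL2 lies at the bottom, and a single library stands low for MCL1 (sh-MFAP2 replicate 1), BAK1 (control replicate 1) and BBC3 (sh-MFAP2 replicate 2).

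None of the members was a differentially expressed gene (DEG), defined by p under 0.01 and Benjamini-Hochberg adjusted p under 0.05 in limma on log2(FPKM + 1). Genes averaging at least 1 FPKM were tested, 9 of the 10 members among 9873 genes. At that threshold 27 of all genes tested were called (0.273%). At an unadjusted p under 0.05 limma found 1 member, BAX, against 12.3% of all genes (3.89% higher and 8.41% lower with sh-MFAP2). Of those genes 68.4% were lower with sh-MFAP2, against 52.9% with quantile normalization and 57.8% with scaling by median of ratios, and BAX was higher under each. The values of the groups did not overlap, with sh-MFAP2 higher, in BAX and BAK1, against 17.5% of all genes, and with sh-MFAP2 lower in BCL2L1, against 31.4%. That makes 3 of the 9 tested members, against 48.9% of all genes, and in the other 6 the groups overlapped. The median log2 fold change was -0.04 over the 9 members and -0.05 over all genes tested. Since 1 is added before the log, changes of low genes are understated, and in bulk RNA more cells with a transcript cannot be told apart from more of it per cell.

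**Figure D2:**
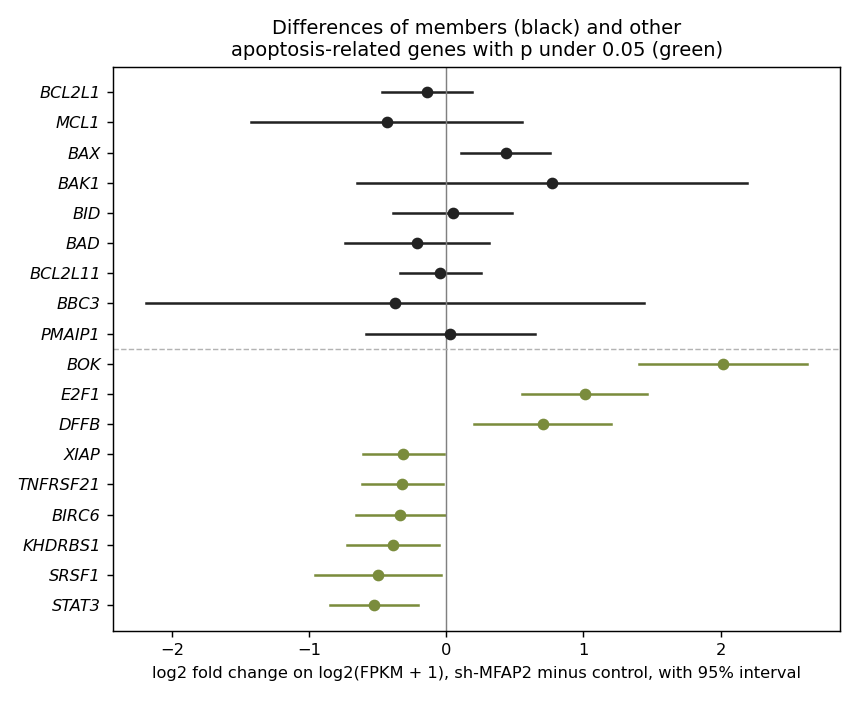
Log2 fold change, sh-MFAP2 minus control on log2(FPKM + 1), of the 9 members tested (black) and of the 9 other apoptosis genes with an unadjusted p under 0.05 (green), with 95% confidence intervals from limma. Among the members the interval of BAX, from 0.11 to 0.76, lies above 0 and the other 8 include 0, while BOK lies farthest to the right at 2.02. DFFB passed the filter on low values only through the sh-MFAP2 group.

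Among the guardians, BCL2 (chr18:63123346-63320128, minus strand) had 0.0167 and 0.0187 FPKM with sh-MFAP2 (replicates 1 and 2) against 0.00288 and 0 FPKM in control replicates 1 and 2. On the inferred scale this is 12 and 12.1 reads with sh-MFAP2 and 2.01 and 0 reads in the controls. Both knockdown libraries lay above both controls, but at a level far under the filter, and BCL2 was not tested.

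BCL2L1 had 75.3 and 70.7 FPKM with sh-MFAP2 and 76.9 and 83.9 FPKM in the controls. Both sh-MFAP2 libraries were the lower ones, but the gap between the groups was smaller than the spread within either. The log2 fold change was -0.14 ± 0.115 (SE, 2 libraries per group), with a limma adjusted p of 0.620. The 95% interval ran from -0.46 to 0.19. Its antisense RNA ABALON overlaps it on the opposite strand and had 0.408, 5.93, 8.78 and 0.325 FPKM (sh-MFAP2 replicates 1 and 2, then control replicates 1 and 2). ABALON was high in a library of each group. Whether the counting used strand is not given in the sources used here, so reads of BCL2L1 and ABALON cannot be told apart where they overlap.

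MCL1, a short-lived guardian that binds BAK1 and NOXA, had 10.2 and 20.1 FPKM with sh-MFAP2 and 18.9 and 20.7 FPKM in the controls. Only sh-MFAP2 replicate 1 was low, and the groups overlapped. The log2 fold change was -0.43 ± 0.348 (SE) with a limma adjusted p of 0.611. It became 0.02 without sh-MFAP2 replicate 1 and -0.89 without sh-MFAP2 replicate 2. In sh-MFAP2 replicate 1, MCL1 was more than 2-fold below control replicate 2 only. In that library 237 of the 9873 genes (2.40%) were more than 2-fold below each of the other libraries.

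At the transcript level, 33 of the 77 member transcripts had a mean of at least 1 FPKM. In limma over 22312 transcripts none of the 33 had an unadjusted p under 0.05, against 7.64% of all transcripts (3.22% higher and 4.41% lower), and their smallest adjusted p was 0.668. No transcript of any gene was called (0%) by the thresholds used for DEGs. Groups did not overlap in 2 of the 33 with sh-MFAP2 higher and in 6 with sh-MFAP2 lower, against 17.8% and 24.9% of all transcripts tested (42.7% in either direction). Of these, MCL1-204 passed the filter of 1 FPKM only through sh-MFAP2 replicate 2, and BCL2L1-206 only through the controls.

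The protective form led among the BCL2L1 transcripts. BCL2L1-201 had 66.9 and 66.1 FPKM with sh-MFAP2 and 67.1 and 74.6 FPKM in the controls. BCL2L1-203, which encodes the same 233 residues, had 18.4 and 13.1 FPKM with sh-MFAP2 and 18.6 and 19.0 FPKM in the controls. Together these transcripts with the whole BCL-xL product made up 81.5% and 80.7% of BCL2L1 FPKM with sh-MFAP2 and 78.5% and 78.9% in the controls. The share was higher in both sh-MFAP2 libraries, by 2.36 percentage points (two-sided exact permutation p = 0.33). With 2 libraries per group, 0.33 is the smallest p this test can give. Most of the rest lay in transcripts annotated with an incomplete coding sequence, which were not assigned to BCL-xL or BCL-xS. The largest of them, BCL2L1-205, took 7.49% and 8.91% with sh-MFAP2 and 9.45% and 9.34% in the controls. BCL2L1-202, the BCL-xS form, had 5.58 and 6.18 FPKM with sh-MFAP2 and 6.03 and 6.88 FPKM in the controls, and its share was 5.33%, 6.29%, 5.52% and 5.81% in the same order. The BCL-xS share overlapped between the groups and differed by 0.145 points (two-sided exact permutation p = 1).

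In MCL1 the share of the whole form among all transcripts, with the non-coding MCL1-203 included, was lower in both knockdown libraries. Among the protein-coding transcripts alone it was lower only in sh-MFAP2 replicate 2, and in replicate 1 it lay above both controls. MCL1-202 had 9.48 and 14.8 FPKM with sh-MFAP2 and 19.2 and 21.4 FPKM in the controls. Neither knockdown library reached the lower control, with a log2 fold change of -0.73 ± 0.274 (SE), an unadjusted p of 0.0618 and an adjusted p of 0.668 in limma, the smallest unadjusted p among the member transcripts. Its log2 fold change was -0.43 without sh-MFAP2 replicate 1 and -1.02 without sh-MFAP2 replicate 2. As a share of MCL1 FPKM it was 61.1% and 56.2% with sh-MFAP2 and 75.2% and 78.8% in the controls, 18.3 points apart, which the exact permutation test placed at its smallest p, 0.33.

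The other MCL1 transcripts differed between the knockdown libraries. In replicate 1 the non-coding MCL1-203 took 36.5% of MCL1 FPKM, against 16.3% in replicate 2 and 19.3% and 14.8% in the controls. In replicate 2 MCL1-204, the form of 197 residues with the splice inside exon 1, took 25.6%, against 2.32% in replicate 1 and 0.264% and 0.280% in the controls. In FPKM, MCL1-204 had 0.360 and 6.73 with sh-MFAP2 and 0.0676 and 0.0761 in the controls, so the level in replicate 2 stood apart from the other 3 libraries. MCL1-204 passed the filter of a mean of 1 FPKM only through sh-MFAP2 replicate 2, so its test is no support for a difference. The log2 fold change of MCL1-204 was 1.60 with an adjusted p of 0.708 in limma. It was 2.85 without sh-MFAP2 replicate 1 and 0.34 without sh-MFAP2 replicate 2. MCL1-201, which skips exon 2, had 0 and 0.515 FPKM with sh-MFAP2 and 1.33 and 1.65 FPKM in the controls, lower in both sh-MFAP2 libraries and under the level tested. The short forms of MCL1 had no common pattern: the exon 2 skip was lower in both sh-MFAP2 libraries, and the exon 1 splice was above both controls in both, far above in replicate 2.

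**Figure D3:**
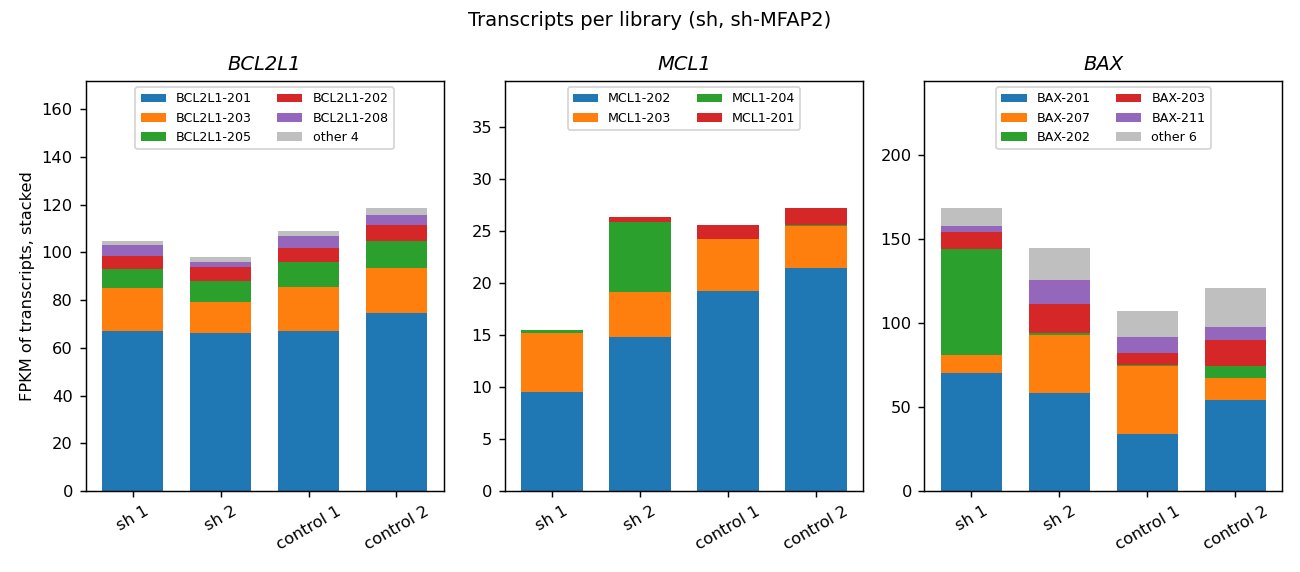
FPKM of the BCL2L1, MCL1 and BAX transcripts, stacked in a bar for each of the 4 libraries, with the 5 most abundant of each gene in colour (all 4 for MCL1) and the others in grey. MCL1-202 is smaller in both sh-MFAP2 bars than in both control bars, MCL1-204 takes a large part only in sh-MFAP2 replicate 2, and BAX-202 is large in sh-MFAP2 replicate 1 alone.

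Of the effectors, BAX had the lowest p among the members. It had 69.4 and 62.5 FPKM with sh-MFAP2 and 48.2 and 48.9 FPKM in the controls. Both knockdown libraries lay above both controls, and each control lay within 1 FPKM of the other. The level with sh-MFAP2 was 1.35-fold that of the controls, a log2 fold change of 0.43 ± 0.114 (SE, 2 libraries per group), with an unadjusted p of 0.0213 and an adjusted p of 0.370 in limma. BAX thus missed the threshold for a DEG. Its log2 fold change stayed between 0.36 and 0.51 with any library left out, but the unadjusted p was 0.141 and 0.13 without control replicates 1 and 2.

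The BAX transcripts were split differently from library to library. BAX-201 had 70.5 and 58.6 FPKM with sh-MFAP2 and 33.8 and 54.4 FPKM in the controls, with a limma adjusted p of 0.694. BAX-202, the form joined at exon 6, had 63.1 and 1.07 FPKM with sh-MFAP2 and 0.427 and 7.22 FPKM in the controls, so that sh-MFAP2 replicate 1 alone carried it at a high level. Its share of BAX FPKM was 37.5%, 0.738%, 0.399% and 5.97% in the same order. Transcripts with a retained intron made up 11.8% and 42.9% with sh-MFAP2 and 56.1% and 29.3% in the controls. These shares overlapped between the groups, and estimates for transcripts that share most of their sequence can trade reads with each other.

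BAK1, the other effector (chr6:33572547-33580293, minus strand), had 20.1 and 21.2 FPKM with sh-MFAP2 and 6.95 and 19.2 FPKM in the controls. The groups did not overlap, yet the gap came from control replicate 1, since control replicate 2 was within 1 FPKM of sh-MFAP2 replicate 1. The log2 fold change was 0.77 ± 0.50 (SE) with a limma adjusted p of 0.554, and it was 0.10 without control replicate 1 and 1.44 without control replicate 2. In control replicate 1, 106 of the 9873 genes (1.07%) were more than 2-fold below each of the other 3 libraries, BAK1 among them. The part of this library in the result beyond these values was not tested. BAK1-202 carried the same pattern, at 16.9 and 21.6 FPKM with sh-MFAP2 and 7.12 and 19.8 FPKM in the controls. BAK1 also has the processed pseudogenes BAK1P1 and BAK1P2, not analysed here, so its reads may be split with near-identical copies.

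Set against the guardians, both effectors were high in the sh-MFAP2 libraries (plot of effector to guardian ratios). The ratio of BAX to BCL2L1 was 0.921 and 0.885 with sh-MFAP2 and 0.627 and 0.583 in the controls. The ratio of BAX to MCL1 was 6.77 and 3.11 with sh-MFAP2 and 2.55 and 2.36 in the controls, and here sh-MFAP2 replicate 1, the library with low MCL1, was far above the rest. BAK1 to BCL2L1 was 0.266 and 0.30 with sh-MFAP2 and 0.0904 and 0.228 in the controls. BAK1 to MCL1 was 1.96 and 1.06 with sh-MFAP2 and 0.367 and 0.924 in the controls, where control replicate 1 was lowest in both ratios of BAK1. The sum of BAX and BAK1 over the sum of the guardians was 1.05 and 0.923 with sh-MFAP2 and 0.575 and 0.651 in the controls. The only ratios computed with a BH3-only gene on top, BCL2L11 to BCL2L1 and PMAIP1 to MCL1, also lay above the controls. Other pairs with a BH3-only gene were not computed, so this does not hold for the BH3-only genes as a class. BCL2L11 to BCL2L1 was 0.0302 and 0.0331 with sh-MFAP2 and 0.0298 and 0.0301 in the controls. PMAIP1 to MCL1 was 0.675 and 0.499 with sh-MFAP2 and 0.394 and 0.431 in the controls. The knockdown libraries thus lay above the controls in all these ratios, which share genes with each other and rest on the same values as above. Among single genes the groups did not overlap, with sh-MFAP2 higher, in 17.5%, and in either direction in 48.9%. These shares are for single genes and give no background for ratios, and the ratios were not tested.

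**Figure D4:**
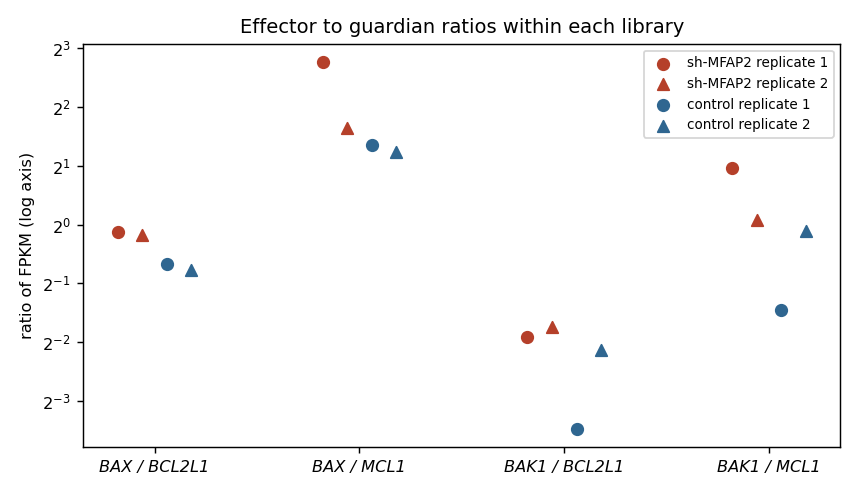
Ratios of effector to guardian FPKM within each library, on a log axis. Each point is a library, coloured by group. BAX to BCL2L1 lies at 0.885 and 0.921 with sh-MFAP2 against 0.583 and 0.627 in the controls, and control replicate 1 is low in both ratios of BAK1.

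The BH3-only genes did not share a direction. BID (chr22:17734138-17774770, minus strand), which caspase-8 cleaves to link death receptors to mitochondria, had 13.5 and 16.5 FPKM with sh-MFAP2 and 15.5 and 13.5 FPKM in the controls. BAD (chr11:64269830-64284704, minus strand), which growth factor signaling restrains by phosphorylation, had 11.4 and 15.4 FPKM with sh-MFAP2 and 14.8 and 16.3 FPKM in the controls. Both genes overlapped between the groups, with log2 fold changes of 0.05 (adjusted p = 0.906) and -0.21 (adjusted p = 0.630) in limma. That of BAD was -0.01 without sh-MFAP2 replicate 1 and -0.42 without sh-MFAP2 replicate 2. GPR137 overlaps BAD on the opposite strand at 2.57 to 3.75 FPKM.

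BCL2L11 (chr2:111119378-111168447, plus strand), which encodes the strong activator BIM, had 2.27 and 2.34 FPKM with sh-MFAP2 and 2.29 and 2.53 FPKM in the controls. These 4 values were close to each other and overlapped between the groups. The log2 fold change was -0.04 ± 0.104 (SE, adjusted p = 0.864 in limma), with a 95% interval from -0.34 to 0.25. The transcript of 198 residues, BIM-EL, had 1.30 and 1.46 FPKM with sh-MFAP2 and 1.44 and 1.66 FPKM in the controls. MIR4435-2HG overlaps BCL2L11 on the opposite strand at 1.96 to 2.89 FPKM.

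BBC3 (chr19:47220822-47232766, minus strand) and PMAIP1 (chr18:59899948-59904306, plus strand), both known to respond to stress, encode PUMA and NOXA. BBC3 had 10.5 and 2.58 FPKM with sh-MFAP2 and 6.23 and 8.52 FPKM in the controls. The sh-MFAP2 libraries held both the highest and the lowest value. The log2 fold change of -0.37 ± 0.638 (SE) had a limma adjusted p of 0.812, and it was -1.21 without sh-MFAP2 replicate 1 and 0.47 without sh-MFAP2 replicate 2. In sh-MFAP2 replicate 2, BBC3 was 1 of 128 genes (1.30%) more than 2-fold below each of the other libraries. PMAIP1 had 6.92 and 10.0 FPKM with sh-MFAP2 and 7.45 and 8.93 FPKM in the controls, with overlapping groups and a log2 fold change of 0.03 (adjusted p = 0.964 in limma).

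**Figure D5:**
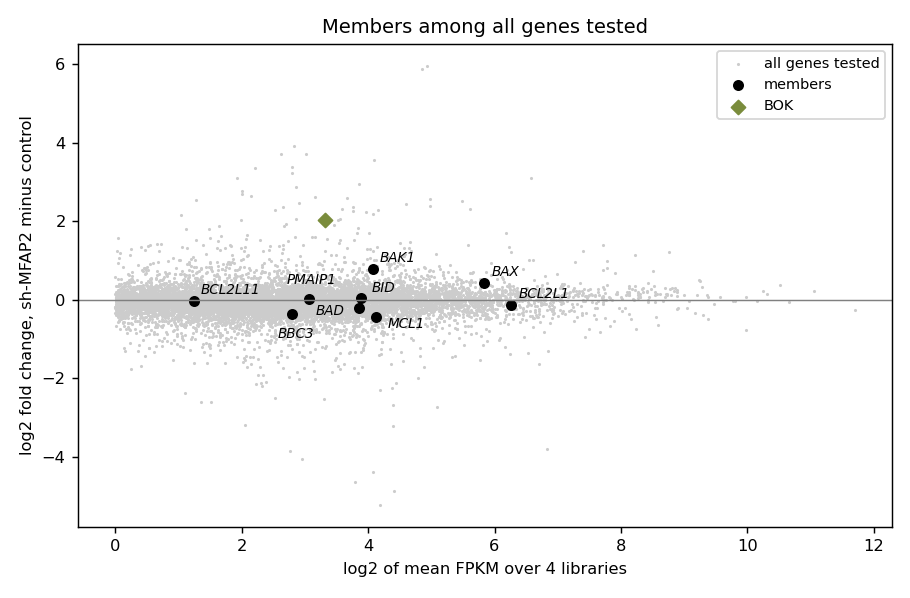
Log2 fold change, sh-MFAP2 minus control, against log2 of mean FPKM for the 9873 genes tested (grey), with the 9 members tested (black) and BOK (diamond). BAX, at 0.43, and BAK1, at 0.77, lie above the median of -0.05, and the other members lie between -0.43 and 0.05.

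Around the 10 members, 7 lists of other apoptosis genes held 90 genes, of which 75 were tested. No DEG was found among them, and 9 (12%) had an unadjusted p under 0.05 in limma, 3 higher and 6 lower, close to the 12.3% of all genes. DFFB, among the 3 higher, passed the filter on low values only through the sh-MFAP2 group. Of the 13 other BCL2 relatives, 8 were tested, with a median log2 fold change of 0.21 against -0.05 over all genes. The median was 0.03 with no filter on low values and 0.13 to 0.37 with a library left out. BOK, another effector, known to act without BAX and BAK1, had 18.3 and 15 FPKM with sh-MFAP2 and 2.71 and 4.07 FPKM in the controls. Its groups were far apart, with a log2 fold change of 2.02 ± 0.215 (SE), an unadjusted p of 0.000946 and an adjusted p of 0.137 in limma, so it too missed the threshold. With a library left out the log2 fold change of BOK was 1.80 to 2.25. BCL2L12 and BIK, the most abundant relatives, had mean levels of 33.0 and 10.9 FPKM and overlapped between the groups. BCL2A1, another guardian, was listed at 0 in all 4 libraries.

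Downstream of the mitochondrion, all 16 genes of the apoptosome and caspases were tested, and their median log2 fold change was -0.09, or -0.21 to 0.02 with a library left out. DFFB, the nuclease that cuts DNA in dying cells, had 1.67 and 1.77 FPKM with sh-MFAP2 and 0.455 and 0.915 FPKM in the controls (log2 fold change 0.70, limma adjusted p = 0.357). Both controls were under 1 FPKM, so DFFB passed the filter only through the group where it was high, and its test is no support for a difference. The channel genes VDAC1 and VDAC2 were the most abundant, at 94.2 and 76.3 FPKM, and overlapped between the groups. Of the 7 inhibitor of apoptosis genes 5 were tested, with a median of -0.29, which was -0.13 with no filter, -0.22 with quantile normalization and -0.21 without control replicate 1. XIAP, which blocks caspases directly, had 3.05 and 3.39 FPKM with sh-MFAP2 and 4.26 and 4.22 FPKM in the controls. BIRC6 had 4.07 and 3.83 FPKM with sh-MFAP2 and 4.92 and 5.58 FPKM in the controls. The adjusted p was 0.399 for both in limma, and BIRC2, at a mean of 9.67 FPKM, also had non-overlapping lower values with sh-MFAP2, which 31.4% of all genes had. At an unadjusted p under 0.05 limma found 2 genes of this list, XIAP and BIRC6. Quantile normalization, scaling by median of ratios and a block for replicate number each left 0. A filter of 5 FPKM could not check this, since both genes had a mean below it and were not tested there. XIAP stayed between -0.37 and -0.25, and BIRC6 between -0.41 and -0.26, in log2 fold change with any library left out. BIRC5, the most abundant at 39.9 FPKM, overlapped.

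In the death receptor list 12 of 16 genes were tested, with a median of -0.03. TNFRSF21, a death receptor, had 48.3 and 50.4 FPKM with sh-MFAP2 and 60.8 and 63.1 FPKM in the controls (log2 fold change -0.32, limma adjusted p = 0.395). The adapter FADD had a mean of 23.6 FPKM with overlapping groups. Among 12 tested transcription factors of BCL2 family genes the median was -0.04. E2F1, a driver of S phase known to act on several BH3-only genes, had 26.6 and 20.8 FPKM with sh-MFAP2 and 11.0 and 11.4 FPKM in the controls (log2 fold change 1.01, limma adjusted p = 0.256). STAT3, known to act on BCL2L1 and MCL1, had 10.8 and 11.6 FPKM with sh-MFAP2 and 15.8 and 17.3 FPKM in the controls (log2 fold change -0.52, limma adjusted p = 0.331). ATF4, a stress factor, had 124.8 and 127.8 FPKM with sh-MFAP2 and 39.8 and 96.6 FPKM in the controls, with control replicate 1 lowest, as for BAK1. JUN had a mean of 55.3 FPKM.

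Of the partners and turnover factors of these proteins 11 of 12 were tested, with a median of -0.14, none at an unadjusted p under 0.05 in limma and 3 with non-overlapping lower values, against 31.4% of all genes. The most abundant were YWHAZ and YWHAB, which encode 14-3-3 proteins that hold BAD, at 91.1 and 61.3 FPKM. Of the 12 splicing regulators of BCL2L1 11 were tested, with a median of -0.11. SRSF1 had 48.5 and 50.3 FPKM with sh-MFAP2 and 62.1 and 79.3 FPKM in the controls (log2 fold change -0.50, limma adjusted p = 0.397). KHDRBS1, which encodes Sam68, had 32.8 and 34.8 FPKM with sh-MFAP2 and 42.3 and 47.1 FPKM in the controls (log2 fold change -0.39, limma adjusted p = 0.394). HNRNPA1 was the most abundant, at 206.7 and 231.2 FPKM with sh-MFAP2 and 178.7 and 180.9 FPKM in the controls (limma adjusted p = 0.430), and PTBP1 had a mean of 67.2 FPKM. Both SRSF1 and KHDRBS1 were lower in both sh-MFAP2 libraries, beside a BCL-xS share of 5.33% to 6.29% in all 4 libraries.

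The promoters of the members were mostly rich in G and C. In RefSeq (GRCh38.p14), promoter windows of 300 bases around the start matched 9 of the 10 members, with MCL1 having no entry. Their GC content, averaged where a gene had several windows, ran from 48.0% in BBC3 and 56.7% in BCL2L1 to 71.3% in PMAIP1 and 74.7% in BCL2L11, with a median of 68.3% against 58.3% over 27305 genes. BAX had 67.3% and BAK1 58.7%.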

How the data were processed

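Total RNA from AGS cells gave 4 libraries, grouped as labelled. The authors deposited a gene table and a transcript table, taken here as FPKM from their values. The submitters' processing notes name hg38. The aligner, estimator, annotation and strand setting are not given in the sources used here. No column was left out.

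Genes or transcripts with a mean of at least 1 FPKM were tested on log2(FPKM + 1) with limma 3.58.1 (eBayes with a variance trend) in R 4.3.3, with Benjamini-Hochberg adjustment over the whole table. Shares of a gene's FPKM were compared by exact permutation. The fit was tested on simulated data. Gene identifiers (92.5%) and all 77 member transcripts were matched to GENCODE 29. Depth came from steps between low values, of which 63.2% to 64.3% were whole within 0.05, so no count test was run. Reads were not recovered gene by gene. Tables were handled with Python 3.11.15 and pandas 2.3.3.

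The members and lists were chosen with earlier results of these data known. Genes named were the members and, of each list, those with an unadjusted limma p under 0.05 and non-overlapping groups. The 2 most abundant genes of each list were named too. All member transcripts with a mean of at least 1 FPKM were to be named, but only a part was. BCL2A1, CLDN4, KRT7 and MCL1-201 were chosen after their values were seen. Alternatives were another filter, pseudocount, scaling, replicate block, summed transcripts, and omitting each library in turn.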

Additional observations from a re-analysis of the deposited data

How the results depend on the processing

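No member was a DEG under the alternatives that kept the definition of a DEG. Genes called numbered 27, against 6 with no filter on low values, 9 with a mean of at least 5 FPKM, 1214 by an unadjusted p under 0.05, 0 with the replicate number as a block (722 at an unadjusted p under 0.05 in limma) and 0 to 0 with a library left out (555 to 2166 at an unadjusted p under 0.05). Across genes, the deviations of the replicate 1 libraries from their group means had a correlation of -0.0572. That value cannot tell whether same-numbered libraries were prepared together, which the labels do not say. Members at an unadjusted p under 0.05 numbered 1, against 0 with the block (where BAX had an unadjusted limma p of 0.0735) and 0 to 3 with a library left out (BAX and BBC3 without sh-MFAP2 replicate 1, BAD, BAX and MCL1 without sh-MFAP2 replicate 2, BAK1 without control replicate 2), and their median log2 fold change ran from -0.0943 to 0.0199. BAX kept its direction under every alternative, from 0.36 to 0.51. The BCL2L1 and MCL1 transcripts at that p numbered 0, against 1 with no filter (MCL1-201) and 0 to 2 with a library left out. The difference in the MCL1-202 share was -11.1 points over protein-coding transcripts, where only sh-MFAP2 replicate 2 lay below the controls. With a library left out it was -20.8 to -15.9 over all transcripts, and that in the BCL2L1-202 share was -0.336 to 0.627. Signs reversed for values near 0 or set by a library. BCL2L11 was 0.0235 with quantile normalization and 0.00573 without control replicate 2. MCL1 was 0.0199 without sh-MFAP2 replicate 1, and MCL1-203 -0.0483 there and -0.00217 without control replicate 2. With a library left out the ranges were -0.89 to 0.02 for MCL1, -0.05 to 0.29 for MCL1-203, -0.09 to 0.18 for BID, -0.42 to -0.01 for BAD, -1.21 to 0.47 for BBC3, -0.21 to 0.27 for PMAIP1 and -0.09 to 0.01 for BCL2L11. Without sh-MFAP2 replicate 2, BBC3 was 0.471, BID -0.0860 and PMAIP1 -0.210. BID was -0.0482 without control replicate 2, and PMAIP1 was -0.0875 without control replicate 1 and -0.00296 from sums of transcripts. The median log2 fold changes of the death receptor, transcription factor and partner lists also changed sign with a library left out, from -0.19 to 0.06, -0.18 to 0.09 and -0.18 to 0.03. The first 2 were 0.01 with quantile normalization. Beyond the libraries left out, the cause was not tested. Depth is only inferred, so intervals for single FPKM values cannot be given.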

Other observations

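A pair of BID transcripts was singled out after the values were seen, because control replicate 1 stood apart in them as it did in BAK1. The transcripts BID-205 and BID-215 encode the same 195 residues. BID-205 made up 39.6% and 42.0% of BID FPKM with sh-MFAP2, 70.0% in control replicate 1 and 39.7% in control replicate 2. BID-215 made up 35.6% and 39.9% with sh-MFAP2, 2.05% in control replicate 1 and 37.2% in control replicate 2. Their summed share ranged only from 72.1% to 81.9%. Estimates for transcripts that share sequence can trade reads with each other, and whether they did so here was not tested.

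CLDN4, a tight junction gene among the epithelial markers, had 47.1 FPKM in sh-MFAP2 replicate 1 and at most 0.551 FPKM in the other 3 libraries.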
